A study of Mus musculus with 72 samples.

Results

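The aldo-keto reductases described here are 9 mouse genes, Akr1a1, Akr1b3, Akr1b7, Akr1b10, Akr1c6, Akr1c13, Akr1c14, Akr1c20 and Akr7a5. Their features were found in the count table by the gene symbol that precedes the probe number. Of the 9 genes, 8 had a feature, 11 features in all of the 30146 in the table, and Akr1c13 was not analysed here. Of these, 10 features of 7 genes passed the filter on low counts and entered the tests over 17050 features, and Akr1b7 did not pass it.

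The study profiled livers of female B6C3F1 mice, 9 to 11 weeks of age, that drank water holding tertiary butyl alcohol (TBA, a small branched alcohol) at 0, 10, 20 or 40 mg/mL. Exposure lasted 14 d or 28 d, with 9 animals in each of the 8 groups, and every animal was housed alone. The 0 mg/mL groups of the same duration are the controls. RNA came from formalin-fixed, paraffin-embedded liver scraped from slides and was read with TempO-Seq, in which pairs of short detector oligos anneal to a transcript, are ligated and are counted by sequencing. By its title, the series concerns how the compound might act against the thyroid and lead to follicular cell adenomas there.

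Aldo-keto reductases are enzymes that use NADPH to reduce aldehydes and ketones to alcohols. Members of the Akr1a and Akr1b subfamilies act mainly on sugars and reactive aldehydes, those of the Akr1c subfamily on steroid ketones and hydroxyls, and those of the Akr7a subfamily on dialdehydes such as those formed from aflatoxin. The liver is a main site of their expression, where they take part in steroid inactivation, bile acid synthesis and the clearance of lipid-derived aldehydes.

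Libraries kept for the analysis held 7765545 to 12682075 counts, with a median of 10079945. At 40 mg/mL and 14 d, replicate 5 was left out for its low total, which leaves 8 animals there. Scaling factors (trimmed mean of M-values, TMM) ranged from 0.792 to 1.58 and exceeded 1.3 in 8 of 71 libraries. Of those, 4 were replicates 1, 2, 7 and 8 of 40 mg/mL at 14 d, a group whose median factor was 1.21 against 0.898 in its controls. The others were 28 d libraries, namely control replicate 3 (1.37), replicate 9 at 20 mg/mL (1.48), and at 40 mg/mL replicates 6 (1.35) and 7 (1.40). Levels below are counts per 1000000 counts (CPM) on the scaled library size. They can be compared between animals for a probe but not between probes, since probes differ in how well they capture their target.

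Several members are close relatives in sequence and in position. By the RefSeq gene table for GRCm38.p6, Akr1b3 neighbours Akr1b8, and Akr1b10 lies between Akr1b8 and Akr1b7, all on chromosome 6. On chromosome 13, Akr1c6 lies between Akr1c12 and Akr1c20. In GENCODE transcripts, the reading frames of Akr1b10 and Akr1b7 were 89.3% identical and those of Akr1c6 and Akr1c20 92.3%. Of all 50-base windows of the longest coding transcript, 3.18% for Akr1b10, 2.08% for Akr1c6 and 2.17% for Akr1c20 occurred letter for letter in another family member. For Akr1a1, Akr1b3, Akr1c14 and Akr7a5 no window did. Probe sequences were not used here, so capture of a near-identical relative by a probe for Akr1b10, Akr1c6 or Akr1c20 was not tested.

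The 250 bases before the annotated start are shown for the gene that rose (Akr1b10) and for its neighbour and closest relative, which was almost undetected (Akr1b7). They are also shown for Akr1c6, which at 40 mg/mL and 14 d was lower with both probes and called with 1 of the 2. They are from RefSeq, build GRCm38.p6, all on the + strand, at chr6:34383997-34384246, chr6:34412112-34412361 and chr13:4434093-4434342. Capitals mark matches on either strand. The letters searched were GGGCGG for the GC box. For the TATA box they were TATAAA. The CAAT box was searched as CCAAT. The core of the antioxidant response element, the site of the stress-response factor NRF2, was searched as TGACNNNGC. No match in these windows overlaps another.
Akr1b10: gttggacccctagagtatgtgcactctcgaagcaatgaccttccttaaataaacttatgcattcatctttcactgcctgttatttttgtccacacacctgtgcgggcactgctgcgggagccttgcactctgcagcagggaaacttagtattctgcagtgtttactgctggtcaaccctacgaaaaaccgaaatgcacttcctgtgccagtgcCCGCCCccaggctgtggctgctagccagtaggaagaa
Akr1b7: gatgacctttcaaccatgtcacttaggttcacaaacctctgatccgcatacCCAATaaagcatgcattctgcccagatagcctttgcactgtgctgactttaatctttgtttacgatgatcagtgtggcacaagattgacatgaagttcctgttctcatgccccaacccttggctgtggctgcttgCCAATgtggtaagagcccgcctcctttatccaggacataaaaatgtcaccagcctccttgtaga
Akr1c6: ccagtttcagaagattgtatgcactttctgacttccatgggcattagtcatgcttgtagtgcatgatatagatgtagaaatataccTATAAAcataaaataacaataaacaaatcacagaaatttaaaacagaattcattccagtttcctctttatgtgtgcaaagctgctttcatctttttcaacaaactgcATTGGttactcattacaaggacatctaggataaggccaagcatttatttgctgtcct

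The Akr1b10 window holds a GC box on the opposite strand, the Akr1b7 window holds 2 CAAT boxes, and the Akr1c6 window holds a TATA box and a CAAT box on the opposite strand. Over all 32851 windows of this length, 32.7% hold the GC box, 33.8% the CAAT box and 12.4% the TATA box. The antioxidant response core is in 10.2% of them and in none of the windows of the 7 members found in the promoter table. These are matches of letters in a short window only.

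Among the aldo-keto reductases, Akr1b10 rose with TBA at 14 d. Akr1b10 (features Akr1b10_76620 and Akr1b10_30632) belongs to the aldose reductase subfamily and reduces aldehydes with NADPH. At 14 d its more abundant probe read 3.06 CPM in the lowest, 6.92 in the median and 8.69 in the highest of 9 controls. At 10 mg/mL the lowest, median and highest animals read 6.85, 9.80 and 12.9 CPM, and at 20 mg/mL 8.04, 12.6 and 18.7 CPM. The animals at 40 mg/mL read 9.40, 11.4 and 19.4 CPM. Every one of the 8 animals at 40 mg/mL stood above every control, as did 6 of 9 at 20 mg/mL and 6 of 9 at 10 mg/mL.

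The group means of this Akr1b10 probe at 14 d were 6.54 ± 1.64 CPM (SD, n = 9) in controls, 9.88 ± 2.56 at 10 mg/mL, 12.4 ± 3.80 at 20 mg/mL and 12.9 ± 3.83 (n = 8) at 40 mg/mL. On the log2 scale the difference from controls was 0.98 at 40 mg/mL (SE 0.19, edgeR quasi-likelihood test with Benjamini-Hochberg adjustment, adjusted p = 0.00052), which is 1.97-fold. It was 0.92 at 20 mg/mL (SE 0.19, edgeR adjusted p = 0.0269) and 0.60 at 10 mg/mL (SE 0.19, edgeR adjusted p = 0.814). The first 2 differences passed the threshold of 0.05 and the last did not. The linear trend was 0.23 log2 units for each 10 mg/mL (SE 0.05, edgeR adjusted p = 0.000577).

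At 28 d the same probe gave no called difference. Its lowest, median and highest values were 5.63, 7.43 and 8.99 CPM in controls, 7.11, 9.05 and 14.1 CPM at 10 mg/mL and 6.30, 9.30 and 16.1 CPM at 20 mg/mL. At 10 mg/mL 5 of 9 animals and at 20 mg/mL 6 of 9 stood above every control. At 20 mg/mL the unadjusted p in edgeR was 0.0488 (95% interval 0.01 to 0.73). At 40 mg/mL the lowest, median and highest values were 4.70, 7.62 and 11.3 CPM, on both sides of the controls. There 3 of 9 animals exceeded the highest control and 1 was under the lowest. The log2 differences were 0.27, 0.37 and 0.03 (SE 0.19 each), with edgeR adjusted p of 0.999, 0.326 and 0.992. The 95% interval at 40 mg/mL ran from -0.34 to 0.40.

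The effect of 40 mg/mL on Akr1b10 was 0.95 log2 units smaller at 28 d than at 14 d (95% interval of the 28 d minus 14 d effect -1.47 to -0.43). The unadjusted p of this difference was 0.000643 in edgeR and the adjusted p 0.271, so it did not pass over all features. Over all 17050 features edgeR and limma called 0 for this difference (0%), and DESeq2 called 31. In edgeR 6.34% of all features had an unadjusted p under 0.05. Among the 10 features of the members, 0 were called by edgeR, DESeq2 or limma and 1 had an unadjusted p under 0.05.

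**Figure D1:**
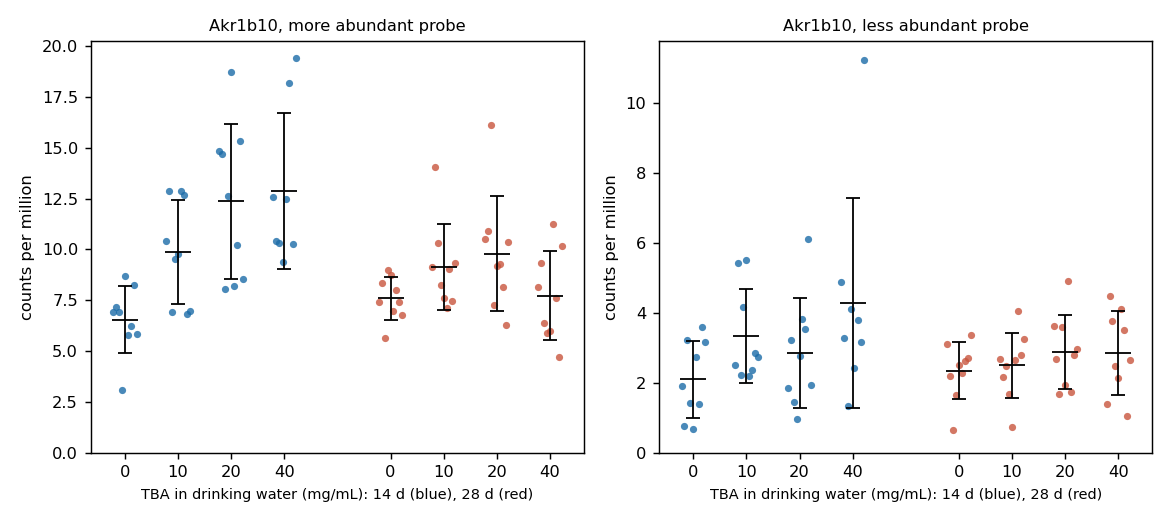
Level of Akr1b10 in each animal (points, CPM) by TBA concentration in the drinking water (mg/mL), at 14 d in blue and 28 d in red, for its 2 probes; bars give the mean ± SD of 9 animals (8 at 40 mg/mL, 14 d). In the left panel all 8 animals at 40 mg/mL and 14 d lie above the highest control (8.69 CPM), while at 28 d the groups overlap.

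The less abundant Akr1b10 probe read few counts, from 6 to 129 in a library. Its mean at 14 d was 2.10 ± 1.11 CPM (SD, n = 9) in controls and 4.28 ± 3.01 (n = 8) at 40 mg/mL, and 4 of 8 animals stood above every control. The log2 difference was 1.03 (SE 0.34, edgeR adjusted p = 0.0532), which missed the threshold, and DESeq2 gave an adjusted p of 0.0297. The mean rests in part on 1 animal, which read 11.2 CPM. Over the 71 libraries the 2 probes followed each other loosely (Pearson r 0.36, Spearman rho 0.28, as a description).

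The 20 mg/mL call for Akr1b10 at 14 d was less firm than that at 40 mg/mL. It held in 11 of 18 fits that left out 1 library, and the adjusted p rose to 0.131 without control replicate 4, the lowest control. The call at 40 mg/mL held in 17 of 17 such fits. It also held without replicates 1 and 7, which had the highest scaling factors (log2 difference 0.87, edgeR adjusted p = 0.011), and with the log2 scaling factor in the model (0.85, edgeR adjusted p = 0.0144).

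Akr1b3 and Akr1b7, the other members of the aldose reductase subfamily, were not called in any comparison or could not be tested. Akr1b3 (Akr1b3_68266) is aldose reductase, which turns glucose into sorbitol in the polyol pathway. Its lowest, median and highest values at 14 d were 2.76, 5.27 and 7.47 CPM in controls and 3.46, 5.22 and 7.57 CPM at 40 mg/mL, so the groups overlapped almost fully. The log2 difference was -0.01 (95% interval -0.51 to 0.49) at 14 d and -0.04 (95% interval -0.53 to 0.45) at 28 d. Its highest group mean was 6.54 CPM at 20 mg/mL and 14 d and its lowest 4.83 CPM at 10 mg/mL and 14 d. Each step between neighbouring groups in that order was smaller than the larger of their SDs. The same held for every other tested probe, also those of Akr1b10 and Akr1c6, so it does not set Akr1b3 apart.

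Akr1b7 (Akr1b7_78624), known as the vas deferens protein and abundant in adrenal cortex, was at 0 counts in 63 of 71 libraries. It held 22 counts in all. Only 2 libraries exceeded 3 counts. One animal at 20 mg/mL and 14 d had 7 (replicate 3), and another at 40 mg/mL and 28 d had 8 (replicate 4). A count of 0 allows a level of up to 0.173 to 0.488 CPM (3 counts in a library), and these limits cover counting error only. No dose effect on Akr1b7 was detectable at this depth. The summed level of adrenal cortex markers was 0.698 to 8.67 CPM over the libraries, and 2 of 7 passed the filter on low counts. The corticotropin receptor Mc2r was at 0 in all libraries.

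In the Akr1c subfamily, Akr1c6 was lower at 40 mg/mL and 14 d on the scaled library size, with 1 of its 2 probes called. Akr1c6 is the mouse type 5 17-beta-hydroxysteroid dehydrogenase, which interconverts active and less active sex steroids in the liver. The less abundant probe (Akr1c6_73506) read 142 CPM in the lowest, 183 in the median and 212 in the highest of 9 controls at 14 d. The 8 animals at 40 mg/mL read 69.7, 124 and 163 CPM, and 5 of them stood below every control. The means were 181 ± 20.0 CPM (SD, n = 9) and 125 ± 29.4 (n = 8), a log2 difference of -0.54 (SE 0.16, edgeR adjusted p = 0.0283).

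The more abundant Akr1c6 probe (Akr1c6_65051) moved by a like amount but was not called. Its controls at 14 d read 186, 229 and 332 CPM (lowest, median, highest) and the 40 mg/mL animals 102, 168 and 208 CPM, with 6 of 8 below every control. The means were 234 ± 44.7 CPM (SD, n = 9) and 166 ± 33.2 (n = 8), a log2 difference of -0.50 (SE 0.18, edgeR adjusted p = 0.0844). The linear trend at 14 d passed for both probes, at -0.14 (edgeR adjusted p = 0.0411) and -0.13 (edgeR adjusted p = 0.0283) log2 units for each 10 mg/mL. With the scaling factor in the model neither trend was called, at -0.04 (edgeR adjusted p = 0.802) and -0.10 (edgeR adjusted p = 0.272). With every library kept they were not called either, at -0.18 (edgeR adjusted p = 0.112) and -0.17 (edgeR adjusted p = 0.0959). Leaving out 1 library at a time, 26 of 35 and 33 of 35 fits called them. The 2 probes ran together over the 71 libraries (Pearson r 0.88, Spearman rho 0.70, as a description).

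At the lower doses for 14 d no Akr1c6 probe was called, and 1 animal in each group stood far below the others. At 20 mg/mL 6 of 9 animals lay below every control with the less abundant probe and 3 of 9 with the more abundant one, while at 10 mg/mL 2 of 9 did with either. At 10 mg/mL the more abundant Akr1c6 probe read 51.9, 247 and 306 CPM (lowest, median, highest) and at 20 mg/mL 59.4, 202 and 257 CPM. The low animals were replicate 2 (10 mg/mL) and replicate 9 (20 mg/mL), and their less abundant probe was the lowest of its group too, at 41.1 and 44.4 CPM. In the same livers the growth hormone receptor gene Ghr read 31.4 and 31.1 CPM and was the lowest of its group. Ghr is the gene whose level most resembled Akr1c6 over these same libraries (Pearson r 0.89), so this is not a separate observation. The log2 differences of the more abundant probe were -0.03 and -0.32, with edgeR adjusted p of 0.999 and 0.848. Those of the less abundant probe were -0.28 (SE 0.16, edgeR adjusted p = 0.999) at 10 mg/mL and -0.46 (SE 0.16, unadjusted p = 0.00448, edgeR adjusted p = 0.545) at 20 mg/mL.

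At 28 d no Akr1c6 probe was called. The more abundant probe had its highest group mean in the 28 d controls, 276 ± 52.9 CPM (SD, n = 9), followed by 242 ± 38.6 at 40 mg/mL, 220 ± 16.9 at 10 mg/mL and 195 ± 30.0 at 20 mg/mL. At 20 mg/mL the log2 difference was -0.50 (SE 0.18, edgeR adjusted p = 0.154) and at 40 mg/mL -0.19 (95% interval -0.53 to 0.16). Control replicate 3 was the lowest of its group at 156 CPM and had a scaling factor of 1.37. Without it the 20 mg/mL difference was -0.58 (edgeR adjusted p = 0.0427). The less abundant probe gave -0.21 there (edgeR adjusted p = 0.559).

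Other values moved with the lower Akr1c6 at 40 mg/mL and 14 d. Hepatocyte markers fell there, 6 of 8, with a summed level of 11120 to 48410 CPM (median 21250) against 46810 to 64370 CPM (median 56090) in controls. Pericentral markers also fell (5 of 10, with 1 that rose), with summed levels of 2256 to 6170 CPM against 6984 to 9960 CPM in controls. The share of all features called there was 6.52%. The part of these markers in the result was not tested. The library scaling factor was higher in this group as well. When the scaling factor (log2) was added to the model, the difference of the more abundant probe was -0.13 (edgeR adjusted p = 0.829) and that of the less abundant probe -0.43 (edgeR adjusted p = 0.213). Over the alternatives, the adjusted p ranged from 0.0403 to 0.829 and from 0.00628 to 0.213 for the 2 probes. In bulk liver, fewer cells of a type and less RNA per cell cannot be told apart.

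**Figure D2:**
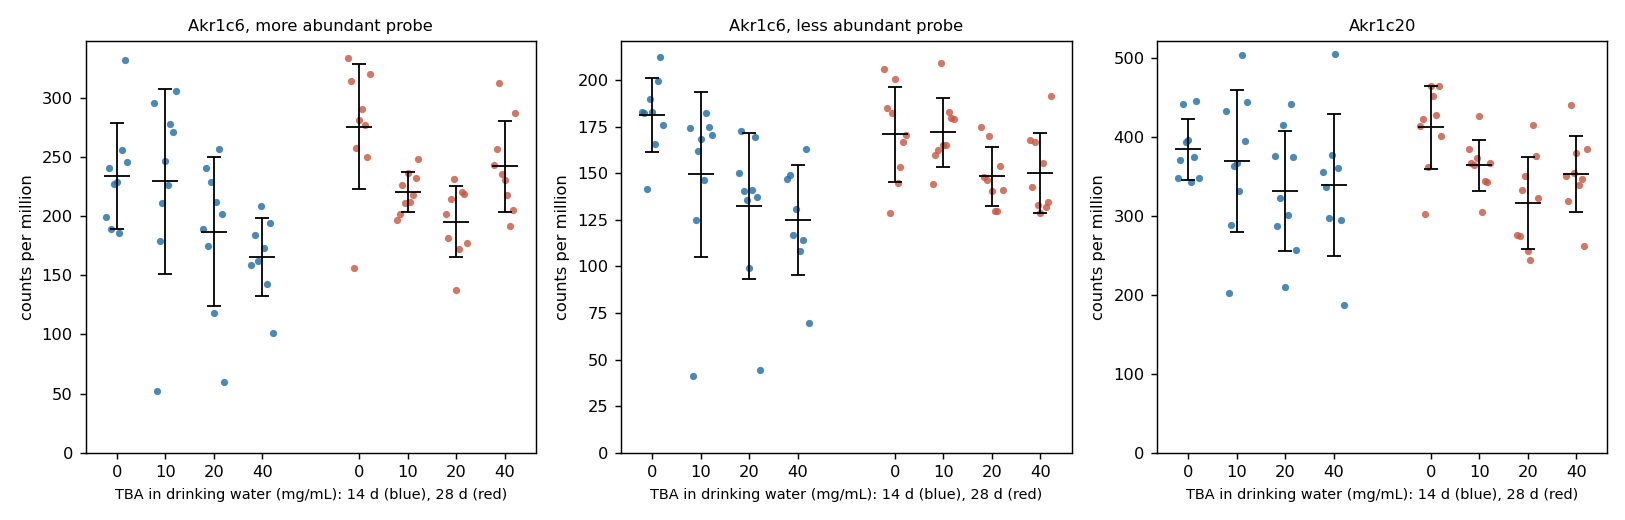
Level of Akr1c6 (2 probes) and Akr1c20 in each animal (points, CPM) by TBA concentration in the drinking water (mg/mL), at 14 d in blue and 28 d in red; bars give the mean ± SD of 9 animals (8 at 40 mg/mL, 14 d). The lowest points of Akr1c6 at 10 and 20 mg/mL for 14 d are 51.9 and 59.4 CPM in the left panel.

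**Figure D3:**
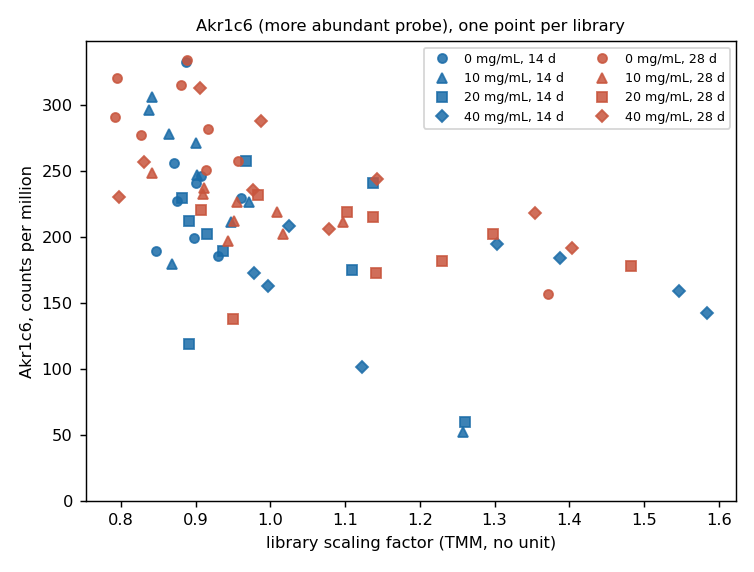
Level of the more abundant Akr1c6 probe (CPM) against the TMM scaling factor of the library, 1 point for each of 71 libraries, with colour for duration and marker shape for concentration. The 8 libraries with a factor above 1.3 lie between 142.5 and 218 CPM, and the 2 lowest libraries (51.9 and 59.4 CPM) both have factors of 1.26.

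Akr1c20 (Akr1c20_69153), the neighbour of Akr1c6 and a hydroxysteroid dehydrogenase, was not called in any comparison of the main fit. Its lowest, median and highest values at 14 d were 343, 375 and 446 CPM in controls and 187, 346 and 505 CPM at 40 mg/mL. The 40 mg/mL animals lay on both sides of the controls, 4 below all of them and 1 above, and the log2 difference was -0.18 (95% interval -0.45 to 0.09). At 28 d the largest difference was at 20 mg/mL, where 4 of 9 animals stood below every control. The means there were 316 ± 58.2 CPM (SD, n = 9) against 412 ± 52.5 in controls, a log2 difference of -0.38 (SE 0.13, edgeR adjusted p = 0.152). It was called in 1 of 18 fits that left out 1 library, the fit without control replicate 3 (edgeR adjusted p = 0.0471). Akr1c20 followed Akr1c6 across the libraries (Pearson r 0.73, Spearman rho 0.66, and r of 0.70 after each group was centred on its mean, as a description). Over the same libraries both were lower where the log2 scaling factor was higher (Pearson r -0.45 for Akr1c20 and -0.52 for Akr1c6). The part of scaling, or of capture of one gene by the other's probe, in this correlation was not tested.

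Akr1c14 (Akr1c14_64870) is a 3-alpha-hydroxysteroid dehydrogenase, which acts on dihydrotestosterone and other steroids. Its controls at 14 d read 102, 127 and 152 CPM (lowest, median, highest) and the 40 mg/mL animals 84.0, 143 and 187 CPM, of which 2 exceeded every control and 2 were under every control. The log2 differences at 40 mg/mL were 0.11 (95% interval -0.19 to 0.41) at 14 d and 0.24 (95% interval -0.05 to 0.53) at 28 d, and neither was called. Its means ran from 115 CPM in the 28 d controls to 137 CPM at 40 mg/mL and 14 d.

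Akr1a1 and Akr7a5, the aldehyde reductases outside these subfamilies, were not called in any comparison. Akr1a1 (Akr1a1_66818) reduces glucuronate to gulonate on the way to ascorbate, which mice make in the liver. It read 81.8, 102 and 121 CPM (lowest, median, highest) in the 14 d controls and 80.7, 116 and 147 CPM at 40 mg/mL, where 4 of 8 animals stood above and 1 below all controls. The log2 difference was 0.16 (95% interval -0.07 to 0.39) at 14 d and -0.07 (95% interval -0.30 to 0.15) at 28 d. Its largest difference was 0.23 at 20 mg/mL and 28 d (SE 0.11, edgeR adjusted p = 0.325), where 6 of 9 animals stood above every control.

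Akr7a5 (Akr7a5_56872 and Akr7a5_30732) reduces aflatoxin dialdehyde and succinic semialdehyde. Its more abundant probe read 27.1, 35.7 and 46.3 CPM (lowest, median, highest) in the 14 d controls and 28.2, 31.4 and 50.1 CPM at 40 mg/mL. The log2 difference was -0.09 (95% interval -0.33 to 0.15) at 14 d and -0.14 (95% interval -0.38 to 0.09) at 28 d. The less abundant probe gave 0.17 and 0.06 in these comparisons, with no call. Neither probe was called in any comparison.

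**Figure D4:**
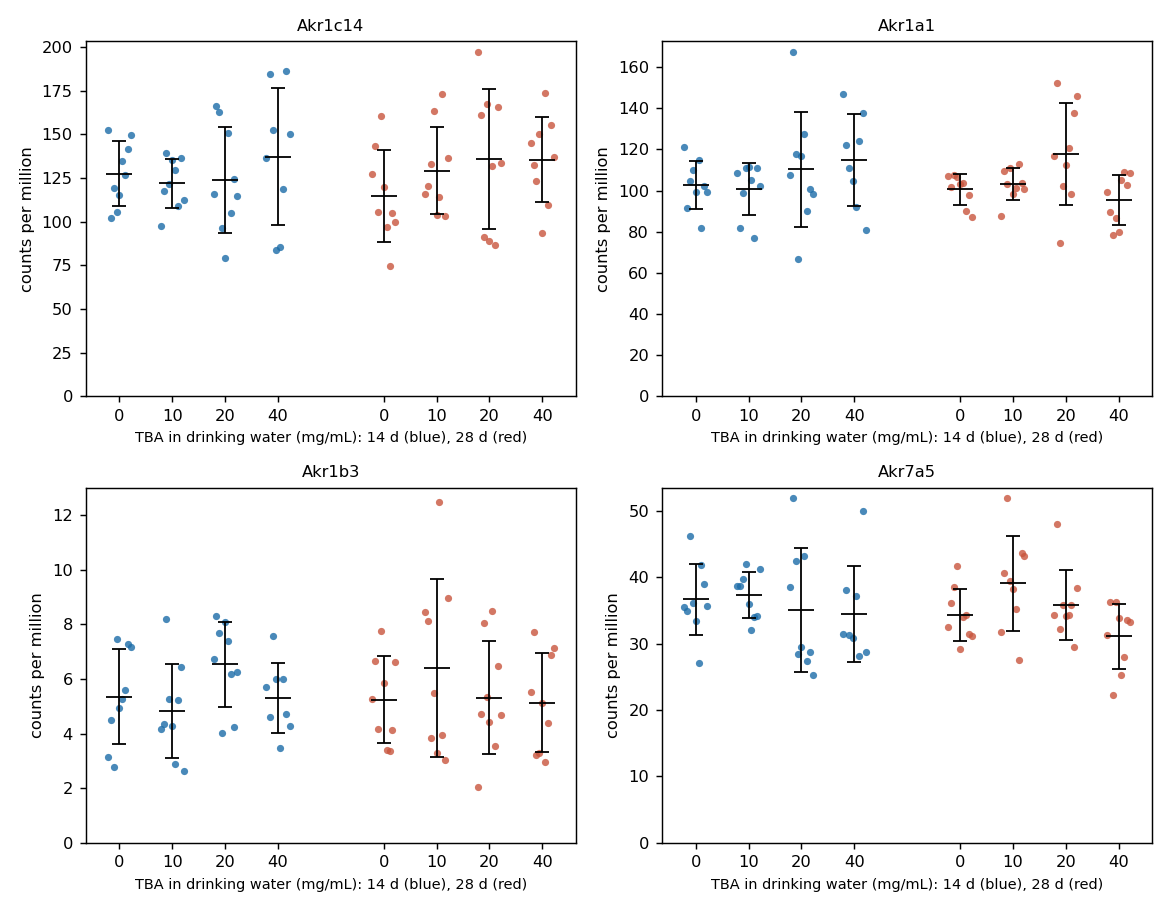
Levels of Akr1c14, Akr1a1, Akr1b3 and Akr7a5 (more abundant probe) in each animal (points, CPM) by TBA concentration in the drinking water (mg/mL), at 14 d in blue and 28 d in red; bars give the mean ± SD of 9 animals (8 at 40 mg/mL, 14 d). The groups overlap in all 4 panels, and no difference was called.

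Counted over the 10 tested features, 2 were called at 40 mg/mL and 14 d, 1 higher (Akr1b10) and 1 lower (Akr1c6), while 6.52% of all 17050 features were called there. At 20 mg/mL and 14 d 1 of 10 was called (Akr1b10), where 0.0352% of all features, 6 in number, were called. At 10 mg/mL and 14 d none of the 10 and 0% of all features were called by edgeR. An unadjusted p under 0.05 was reached there by 2 of the 10, both probes of Akr1b10, beside 4.32% of all features. DESeq2 and limma also called none of the 10 there. The linear trend at 14 d was called for 3 of 10 (1 higher, 2 lower) against 7.99% of all features.

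At 28 d edgeR called 0 of the 10 features at each dose. All features were called in 0% at 10 mg/mL, 0.158% at 20 mg/mL and 0.00587% at 40 mg/mL, and in 0.129% for the linear trend. An unadjusted p under 0.05 was reached by 0, 4 and 0 of the 10 features at the 3 doses and by 0 for the trend. Over all features it was reached by 4.15%, 15.15% and 6.32% at the 3 doses and by 7.89% for the trend. DESeq2 called none of the 10 in these comparisons, and limma called 1, the more abundant Akr1c6 probe at 20 mg/mL. There limma called 2.72% of all features (463) and DESeq2 1.68% (287), against 27 by edgeR. Between the 28 d and 14 d controls none of the 10 and 0% of all features were called by edgeR. DESeq2 and limma called none of the 10. None of the 10 had an unadjusted p under 0.05, beside 3.03% of all features. The median log2 difference of the 10 features was 0.05 at 40 mg/mL and 14 d beside 0.06 for all features, and -0.06 beside 0.03 at 40 mg/mL and 28 d.

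**Figure D5:**
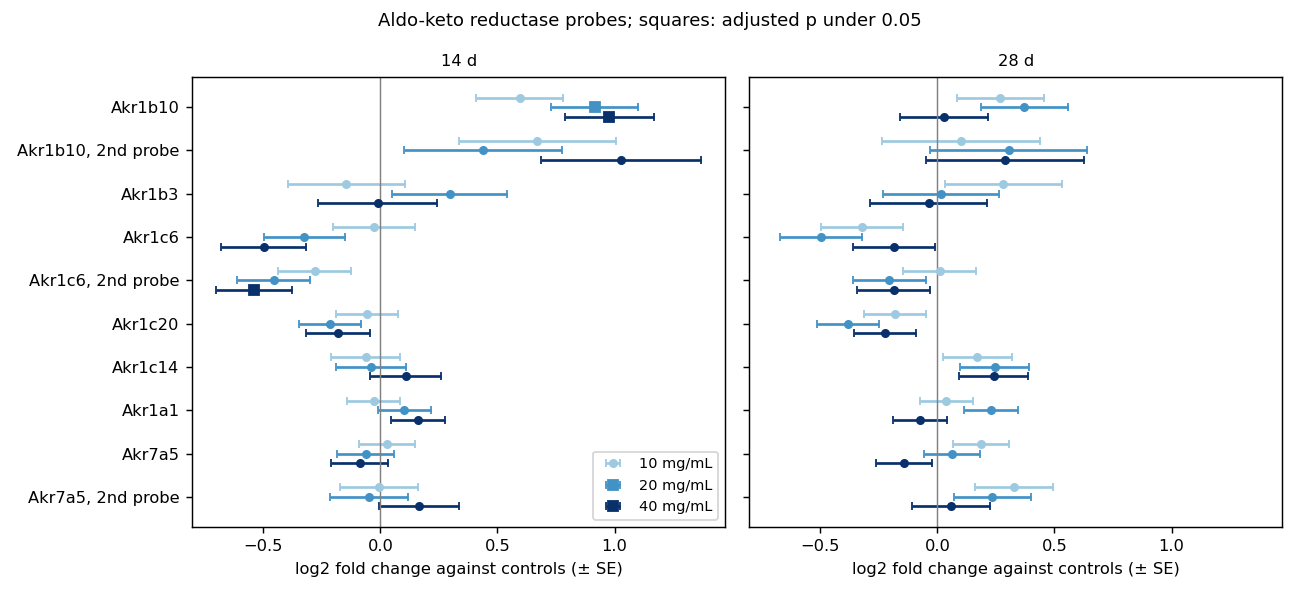
Log2 fold change against controls of the same duration (± SE, edgeR) for the 10 tested probes of the aldo-keto reductases, at 14 d (left) and 28 d (right), with darker blue for the higher TBA concentration. Squares mark the 3 differences with an adjusted p under 0.05, Akr1b10 at 20 and 40 mg/mL and 1 Akr1c6 probe at 40 mg/mL, all at 14 d.

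Other genes of the same or related reactions were counted by their most abundant probe at 40 mg/mL and 14 d. Beside every list count at that dose and time stand 6.52% of all features called and a median log2 difference of 0.06. Of 5 tested relatives outside the members (Akr1b8, Akr1c12, Akr1c19, Akr1d1 and Akr1e1), 0 were called. The median log2 difference of these 5 was 0.14. Akr1b8, the other neighbour of Akr1b10, differed by -0.37 (SE 0.38, edgeR adjusted p = 0.679), from a mean of 3.87 CPM in controls to 2.98. In the polyol and fructose pathway, through which aldose reductase feeds sorbitol, 0 of 5 were called (median 0.25). In the glucuronate and ascorbate route, where Akr1a1 acts, 0 rose and 1 of 8 fell (median -0.09). That gene was Gulo, the last enzyme of ascorbate synthesis, from 23.4 ± 4.31 CPM (SD, n = 9) to 13.4 ± 5.36 (n = 8), a log2 difference of -0.80 (edgeR adjusted p = 0.022).

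Steroid reductases and dehydrogenases outside the family were listed together with the hydroxylase Cyp7b1. Of these 17 genes, 0 rose and 5 fell at 40 mg/mL and 14 d, with a median log2 difference of -0.64. The oxidative enzyme Hsd17b2, which inactivates estradiol and testosterone, fell from 600 ± 80.2 CPM (SD, n = 9) to 237 ± 90.5 (n = 8), by 1.34 on the log2 scale (edgeR adjusted p = 2.1e-05). All 8 dosed animals stood below every control. Cyp7b1, an oxysterol hydroxylase, fell by 1.68 (edgeR adjusted p = 0.00074), Hsd3b3 by 0.86 (edgeR adjusted p = 0.0022) and Hsd3b7, which acts early in bile acid synthesis, by 0.64 (edgeR adjusted p = 0.00242). None of the 17 was called at 40 mg/mL and 28 d (median -0.48), where only 0.00587% of all features were called (median 0.03). Hepatocyte and pericentral markers fell in the same 14 d comparison, and their part in these counts and in the Gulo value was not tested. Gulo is itself among the pericentral markers, so its fall is counted both there and in the ascorbate route.

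Carbonyl reductases of the short-chain family do like chemistry with another protein fold. Of 17 tested at 40 mg/mL and 14 d, 1 rose and 2 fell (median -0.20). Cbr1, a carbonyl reductase of broad substrate range, rose by 0.64 (edgeR adjusted p = 0.00989), with 5 of 8 animals above every control and a wide spread (302 ± 183 CPM, SD, n = 8, against 194 ± 24.1 in 9 controls). The retinol dehydrogenase genes Rdh7 and Rdh5 fell by 0.97 (edgeR adjusted p = 0.00169) and by 0.65 (edgeR adjusted p = 0.0352).

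Known target genes of NRF2, which drives several aldo-keto reductases in other settings, were counted beside them. Of 12 tested at 40 mg/mL and 14 d, 2 rose and 0 fell (median 0.29). They were Gstm1, a glutathione transferase (0.77, edgeR adjusted p = 0.0126), and G6pdx, which supplies NADPH (2.01, edgeR adjusted p = 0.00588), the latter with 4 of 8 animals above and 2 below every control. Nqo1, a quinone reductase, differed by 0.68 and was not called (edgeR adjusted p = 0.0681). At 28 d Gstm1 was called at 20 mg/mL (0.87, edgeR adjusted p = 0.0497) and none at 40 mg/mL. The shares of all features called at these doses were 0.158% and 0.00587%.

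Markers of the drug receptors CAR and PXR numbered 12, of which 2 rose and 0 fell at 40 mg/mL and 14 d (median 0.33). Cyp2b10, a cytochrome P450, rose by 4.09 (edgeR adjusted p = 0.000796), with 4 of 8 animals above and 1 below every control, and the stress gene Gadd45b by 1.88 (edgeR adjusted p = 0.0186). At 28 d and 20 mg/mL Cyp2b10 (3.78, edgeR adjusted p = 0.0497) and Cyp2c29 (1.74, edgeR adjusted p = 0.0497) rose, with Cyp2b10 above every control in 9 of 9 animals. None of the 12 was called at 40 mg/mL and 28 d. The shares of all features called at 28 d were 0.158% at 20 mg/mL and 0.00587% at 40 mg/mL.

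Of the other cell type markers at 40 mg/mL and 14 d, 4 of 10 periportal, 1 of 7 sinusoidal endothelial and 2 of 8 stellate cell markers fell. None of 7 Kupffer cell, 4 cholangiocyte, 6 lymphocyte, 2 adrenal cortex, 4 gut epithelium and 2 erythroid markers was called, and no adipocyte marker passed the filter. Muc2 and Sis (gut epithelium) and Lep (adipocyte) were at 0 in every library. No marker was called at 40 mg/mL and 28 d. The shares of all features called at 40 mg/mL were 6.52% at 14 d and 0.00587% at 28 d. The defining hepatocyte genes were abundant in all libraries, with a lowest summed level of 11120 CPM.

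The genes whose level most resembled each member were found by Pearson correlation of log2 CPM over 71 libraries, among 9971 features with a mean of at least 5 CPM. These values are descriptions, over libraries that share doses and scaling. For Akr1c6 they were Ghr (r 0.89), the aldehyde oxidase Aox3 (0.87) and the sulfotransferase Sult2a8 (0.86). For Akr1c20 they were Fabp2 (0.82), Fads2 (0.79) and Sh3bgrl (0.79). Akr1b10 had weaker companions, Eci3 (0.51), Sult2a2 (0.50) and Rpl13-ps3 (0.49), and after centring on group means these fell to 0.34, 0.30 and 0.30. The closest gene was Slc25a23 for Akr1a1 (0.73), Akip1 for Akr1c14 (0.63), Gls2 for Akr7a5 (0.60) and Chid1 for Akr1b3 (0.46).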

How the data were processed

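The authors deposited unscaled whole-number counts for each TempO-Seq probe in 72 liver libraries. Per the submitters' processing notes, bcl2fastq 2.20 and Bowtie were used. The version of Bowtie, the genome build and the counting tool are not given in the sources used here. Dose and duration in the labels define the groups. No batch or pairing is recorded in the labels, and replicates are numbered in listed order. All 72 columns of values were matched to samples (0 were not).

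Libraries under 100000 counts were left out, which removed 1. Features were filtered with filterByExpr over the 8 groups, which kept 99.9% of counts. Tests used edgeR 4.0.16 under R 4.3.3 (scaling by TMM, robust quasi-likelihood fit, 1 mean for each group, common biological coefficient of variation 0.402), with Benjamini-Hochberg adjustment over 17050 features at 0.05 in each of 12 comparisons. The fit was tested on simulated counts first. Alternatives used DESeq2 1.42.0, limma 3.58.1, other scalings, filters and sets of libraries. Levels are CPM on TMM-scaled library sizes, log2 CPM uses a prior count of 2, and 95% intervals are the estimate with normal limits from its SE. Within groups, no pair of 280 was a repeat of 1 library (lowest chi-square for each feature 7.35).

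The probe with the highest mean count stands for a gene. Named are all members, their other probes where a call differs or the log2 differences differ by over 0.5, up to 4 genes of each list with the smallest p at 40 mg/mL among those called, the 3 most correlated genes of a member, and libraries with a scaling factor above 1.3. Akr1b8, Nqo1, Cyp2c29 and the values at 28 d and 20 mg/mL of Gstm1 and Cyp2b10 were added after their values were seen. Members and lists were chosen with earlier results of these data known. Promoters and gene order are from RefSeq (GRCm38.p6), which held promoters of 7 of the 9 members, and transcripts are from GENCODE M21. Reading frames were compared in place of proteins, which were not used here.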

Additional observations from a re-analysis of the deposited data

Results flagged for a closer look

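Single animals that stood apart from their group were looked for in 80 sets of values (10 probes in 8 groups) by the gap to the nearest animal relative to the range on the log2 scale. The rule marks about 1 in 20 groups by chance, and 7 animals' values were marked, all of them the lowest of their group.

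Akr1c6 accounted for 4 of the 7. Replicate 2 of 10 mg/mL at 14 d read 51.9 CPM with the more abundant probe, where the next animal read 179.5, and 41.1 CPM with the less abundant probe, where the next read 125. Replicate 9 of 20 mg/mL at 14 d read 44.4 CPM with the less abundant probe, where the next read 99.1. Replicate 3 of the 28 d controls read 156 CPM with the more abundant probe, where the next read 251. The scaling factors of these libraries were 1.26, 1.26 and 1.37, and the summed hepatocyte markers were the lowest of the group in all 3. The part of either in the low values was not tested. In replicate 2 of 10 mg/mL at 14 d, Akr1b10 (more abundant probe) was at the top of its group, at 12.9 CPM, level with replicate 6.

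Akr1b10 gave 2 values of this kind. Replicate 4 of the 14 d controls read 3.06 CPM with the more abundant probe, where the next read 5.78. Replicate 3 of the 28 d controls read 0.653 CPM with the less abundant probe, where the next read 1.65. The remaining value was that of the less abundant Akr7a5 probe in replicate 3 of the 14 d controls, 7.99 CPM, where the next read 12.3. No member's dose effect differed between durations after adjustment.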

How the results depend on the processing

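The number of member genes with a called probe was 1 at 20 mg/mL and 14 d and fell to 0 with only the 2 groups compared and with every library kept (fits that left out 1 library gave 0 to 1, with 0 when any of control replicates 4, 6, 7 or 9 or dosed replicates 1, 5 or 8 was left out). At 40 mg/mL and 14 d it was 2 and fell to 1 with every library kept, without replicates 1 and 7, and with a covariate for the scaling factor (1 to 2 when 1 library was left out, with 1 without control replicate 8 or dosed replicates 7 or 9). Akr1c6 was the gene lost. At 20 mg/mL and 28 d the number was 0, became 1 with limma and 2 (Akr1c6 and Akr1c20) without control replicate 3 (otherwise 0, so a range of 0 to 2). For the 14 d trend it was 2 and fell to 1 with every library kept and with the covariate (1 to 2 when 1 library was left out, with 1 without replicate 7 or 9 of 40 mg/mL). The cause was not tested.

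Akr1b10 kept its call at 40 mg/mL and 14 d in all 11 alternatives (log2 difference 0.85 to 1.00, edgeR, DESeq2 or limma adjusted p 6.3e-05 to 0.0229). At 20 mg/mL it kept it in 8 of 10, with adjusted p up to 0.173 in edgeR. The less abundant Akr1c6 probe kept its call at 40 mg/mL in 7 of 10 (log2 difference -0.72 to -0.43), and the more abundant probe was called in 2 of 11 (-0.68 to -0.13). No called difference changed sign. Over all features, 1111 were called at 40 mg/mL and 14 d, against 1390 with DESeq2, 1248 with the 5 CPM filter, 640 with limma, 645 with only the 2 groups, 464 with every library kept, 555 with the covariate and 273 without replicates 1 and 7. At 20 mg/mL and 28 d 27 were called, against 463 with limma, 287 with DESeq2, 83 with the 5 CPM filter and 0 with no filter, other size factors or every library kept. At 40 mg/mL and 28 d 1 was called, against up to 183 (limma). No paired analysis was possible because the labels give no replicate numbers that groups share. Probes near 3 CPM, such as the less abundant Akr1b10 probe with 6 to 129 counts, are limited by depth.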

Other observations

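At 14 d the animal with the lowest Akr1c6 was also at the top for Akr1b10 in 2 of the 3 dosed groups (more abundant probe of each gene). This comparison was chosen after the values were seen. Replicate 2 of 10 mg/mL read 51.9 CPM for Akr1c6 and 12.9 CPM for Akr1b10, and replicate 9 of 40 mg/mL read 102 CPM and 19.4 CPM. At 10 mg/mL replicate 6 also read 12.9 CPM for Akr1b10, with 227 CPM for Akr1c6. Replicate 9 of 20 mg/mL, the lowest for Akr1c6 at 59.4 CPM, ranked the 3rd lowest of 9 for Akr1b10, at 8.55 CPM. The other groups did not show the pattern. Their lowest Akr1c6 animal ranked, from the lowest Akr1b10 of 9, 2 in the 14 d controls and 1 in the 28 d controls. At 28 d it ranked 6, 4 and 5 at 10, 20 and 40 mg/mL. The 3 dosed 14 d animals with the lowest Akr1c6 all had the lowest Ghr of their group, at 31.4, 31.1 and 30.8 CPM in order of dose. Ghr is the gene most correlated with Akr1c6 over these libraries, so this is not a separate observation. Over the 71 libraries the correlation of Akr1c6 and Akr1b10 was weak (Pearson r -0.34, Spearman rho -0.32, and r of -0.09 after centring on group means, as a description).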
